A study of Papio hamadryas with 4 samples.

Results

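The tissue kallikrein-kinin system was followed here through 5 genes in the baboon kidney: KLK1, KNG1, BDKRB1, BDKRB2 and CPM. The members were the probes whose gene symbol in the platform annotation is 1 of these 5, which gave 6 probes of 48702 on the array and 5 genes of 18774 with a symbol. The set was chosen by the diet ratios of KLK1, which stood among the lowest of all genes in both phenotypes, so the KLK1 values below are a description and carry no test. The RNA came from kidney biopsies of Papio hamadryas and was read on Illumina bead arrays, whose probes were designed for human transcripts. The groups were animals of normal SLC phenotype (NSLC) after 6 weeks on a low sodium diet, the same phenotype after 6 weeks on a high sodium diet, and high SLC animals (HSLC) on each of those diets. The labels do not spell out SLC, and the study's title ties the phenotypes to blood pressure. Each of the 4 groups has 1 array. The sources used here do not give how many animals an array stands for, their ages or the order of the diets. No value therefore has an error, and no difference below was tested against a spread between replicates.

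Tissue kallikrein, the product of KLK1, is a serine protease of the connecting tubule that is shed into the urine and cuts kinins out of kininogen. Kininogen is the product of KNG1, and the released kinin acts on a constitutive receptor (BDKRB2). Its trimmed form acts on a second receptor (BDKRB1), which is known to be induced by injury and inflammation. Carboxypeptidase M, the product of CPM, removes the last arginine of a kinin and so turns a ligand of the first receptor into a ligand of the second. In the kidney, kinins are known for widening vessels and for promoting sodium excretion, and urinary kallikrein has long been studied in salt-dependent blood pressure.

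Intensities are given as deposited, in linear units, and log2 values after background correction and quantile normalization of the 4 arrays. Detection meant an intensity above the median of the array, which lay between 68.2 and 79.5. A ratio counted as higher or lower when it reached 2-fold, a rule of size and not a test. Of marker genes, 20 of 22 for the proximal tubule and 7 of 8 for podocytes were detected on all 4 arrays. For the distal convoluted and connecting tubule 17 of 23 were, beside 11909 of 18774 over all genes. Detection alone therefore does not show that a marker was present. Some detected probes were near the median, such as podocyte NPHS1 at 77.1 to 92.4, while podocyte CLIC5 read 444.7 to 721.2. The HSLC low sodium array stood apart in skeletal muscle transcripts, whose 18 probes summed to 22868 there against 2125 to 3132 on the other arrays. The HSLC high sodium array stood apart in a few neutrophil transcripts. The 12 neutrophil probes summed to 3341 there against 1079 to 1206 elsewhere, with DEFA1B at 1513 and CAMP at 966.6. S100A8, S100A9, CSF3R and CXCR2 were no brighter there than on the NSLC arrays. The part of the muscle or neutrophil transcripts in the HSLC ratios of the members was not tested beyond the values given below for KLK1. Without normalization the median of all genes stood at 0.28 in the NSLC diet comparison, so the scale of that comparison depends on the normalization. After quantile normalization it was 0.04 in NSLC and 0.01 in HSLC, and between phenotypes 0.003 on low and 0.02 on high sodium. The share of all genes above 0 was not counted, so counts of list members above or below 0 lack that comparison.

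KLK1 was 2.57-fold lower on high than on low sodium in NSLC and 2.70-fold lower in HSLC, and it was the member with the clearest difference between diets. Its single probe read 1009 in NSLC on low sodium and 571 on high sodium. In HSLC it read 1015 on low and 414 on high sodium. Both low sodium arrays were bright and nearly equal, both high sodium arrays were dimmer, and the diets did not overlap. After normalization 26.2% of the genes detected on all arrays had both high sodium arrays below both low sodium arrays. The KLK1 probe was far above background on every array, between 6.07 and 14.1 times the array median. On the log2 scale KLK1 stood at 10.20 and 8.84 in NSLC on low and high sodium, and at 10.14 and 8.71 in HSLC. The log2 ratios of high over low sodium were -1.36 in NSLC and -1.44 in HSLC, against a median over all genes of 0.04 and 0.01.

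**Figure D1:**
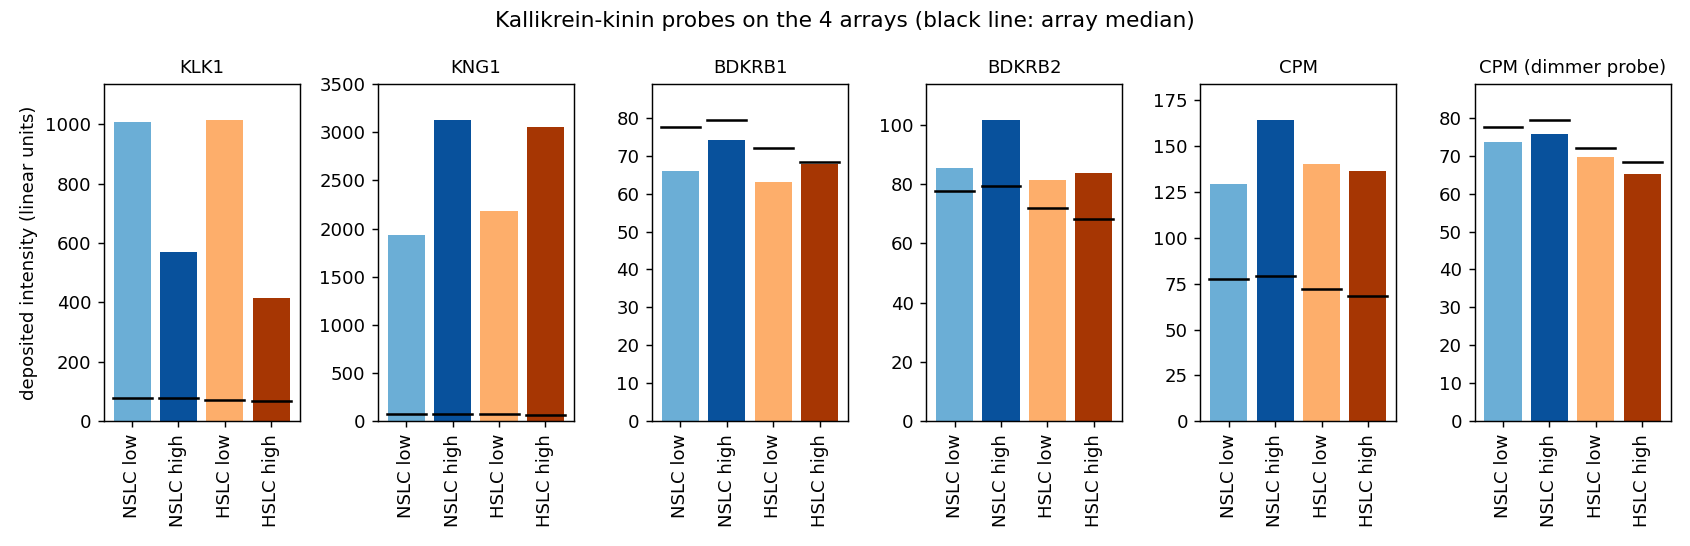
Deposited intensity in linear units (y axis, a separate scale for each probe) of the 6 kallikrein-kinin probes on the 4 arrays (x axis, phenotype and sodium diet); bars are single arrays and black lines mark the median of that array. KLK1 drops from 1009 and 1015 on low sodium to 571 and 414 on high sodium, KNG1 is brighter on both high sodium arrays, and BDKRB1 and the dimmer CPM probe lie below the array median throughout.

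Among 12191 genes detected in the NSLC diet comparison, KLK1 had the fifth lowest ratio, and EIF1, TNNC2, USH1G and OR2A20P were lower. In HSLC 18 genes of 12481 lay below KLK1. All 18 were at least 2-fold higher in HSLC than in NSLC on low sodium, and 10 of them belong to the skeletal muscle list. When the NSLC low sodium array took the place of the HSLC low sodium array, KLK1 was at -1.50 and 7 genes of 12260 lay below it, and with the skeletal muscle genes left out before normalization its HSLC ratio was -1.45. Genes lower by 2-fold were 0.156% of those detected in the NSLC comparison and 0.232% in the HSLC comparison, and those higher were 0.509% and 0.529%. KLK1 was 1 of 4 detected members past 2-fold, lower in both phenotypes. Of 11909 genes detected on all arrays, 0.0168% were lower by 2-fold in both, namely KLK1 and TNNC2, which encodes the fast skeletal troponin C. Since KLK1 was chosen on these contrasts, nothing is read from its place in them.

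The size of the KLK1 difference in NSLC depended on the scaling and its direction did not. Its ratio in NSLC was -0.82 without normalization, -0.88 with median scaling and -0.98 in the second deposited value table, the series matrix, all short of 2-fold. In HSLC the lowest and highest values over all settings were -1.51 and -1.26. Taken relative to the median of all genes, KLK1 stood at -1.10 in NSLC without normalization and with median scaling, and at -1.30 in HSLC in both. The gap between the dimmer low sodium array and the brighter high sodium array was 1.30 on the log2 scale after quantile normalization and 0.82 without it.

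KNG1, the kinin precursor, did not share the lower level. Its probe read 1938 in NSLC on low sodium and 3130 on high sodium. In HSLC it read 2183 on low and 3058 on high sodium. Both high sodium arrays were brighter than both low sodium arrays, but after quantile normalization the gap between the diets was only 0.02 on the log2 scale. The normalized log2 ratios of high over low sodium were 0.16 in NSLC and 0.39 in HSLC, and the NSLC value was 0.69 without normalization and 0.64 with median scaling. Neither reached 2-fold in any setting. Such an ordering of the diets was common: both high sodium arrays stood above both low sodium arrays in 31% of genes and below them in 26.2%.

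The difference between the ratios of KLK1 and KNG1 does not depend on a factor common to an array. KLK1 changed by -1.52 relative to KNG1 in NSLC and by -1.83 in HSLC on the log2 scale. Over the other settings this difference lay between -1.59 and -1.29 in NSLC and between -1.91 and -1.49 in HSLC. Since KLK1 was chosen for its low diet ratios, this difference is carried by the choice and is given as a description only.

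**Figure D2:**
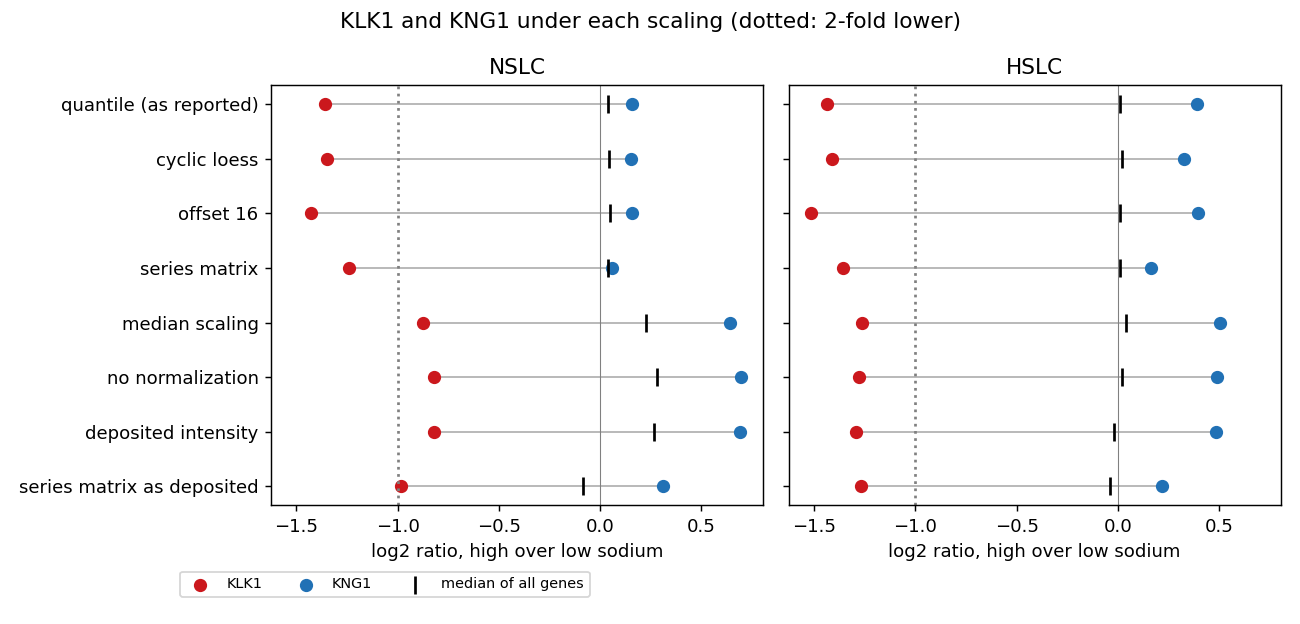
Log2 ratio of high over low sodium (x axis) for KLK1 (red) and KNG1 (blue) under 8 scalings (y axis), with NSLC on the left and HSLC on the right; black ticks are the median of all genes and the dotted line marks 2-fold lower. KLK1 lies left of the dotted line in HSLC under every scaling shown and in NSLC under the first 4, and KLK1 minus KNG1 lies between -1.91 and -1.29 over the scalings and phenotypes shown.

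Kinin receptor transcripts were at or near the background of the array. BDKRB1 read 65.8 and 74.1 in NSLC on low and high sodium and 63.1 and 67.7 in HSLC, below the array median on every array, so no ratio is given for it. BDKRB2 read 85.3 and 101.7 in NSLC and 81.4 and 83.8 in HSLC, 1.10 to 1.28 times the median. Its log2 ratios of high over low sodium were 0.21 in NSLC and 0.12 in HSLC. Both high sodium arrays stood above both low sodium arrays, as in 31% of genes, by 0.12 on the log2 scale. The series matrix as deposited put the NSLC ratio of BDKRB2 at -0.18, where the median of all genes was -0.09. BDKRB2 was not detected when the limit was the 75th percentile of each array. A ratio this close to background does not show that the receptor transcript was unchanged. A human probe can also bind baboon RNA poorly, and the probe sequences were not used here.

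CPM, the membrane peptidase that trims kinins, has probes for 2 annotated transcripts. The brighter read 129.2 and 164.4 in NSLC on low and high sodium, and 140.1 and 136.4 in HSLC. Its log2 ratio was 0.20 in NSLC and -0.02 in HSLC, and the diets overlapped. The dimmer probe lay between 65.1 and 75.6, below the median of its array on all 4 arrays. The sign of the brighter probe in HSLC changed with the scaling, from -0.02 to 0.01 with median scaling and 0.03 with the normalized series matrix.

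**Figure D3:**
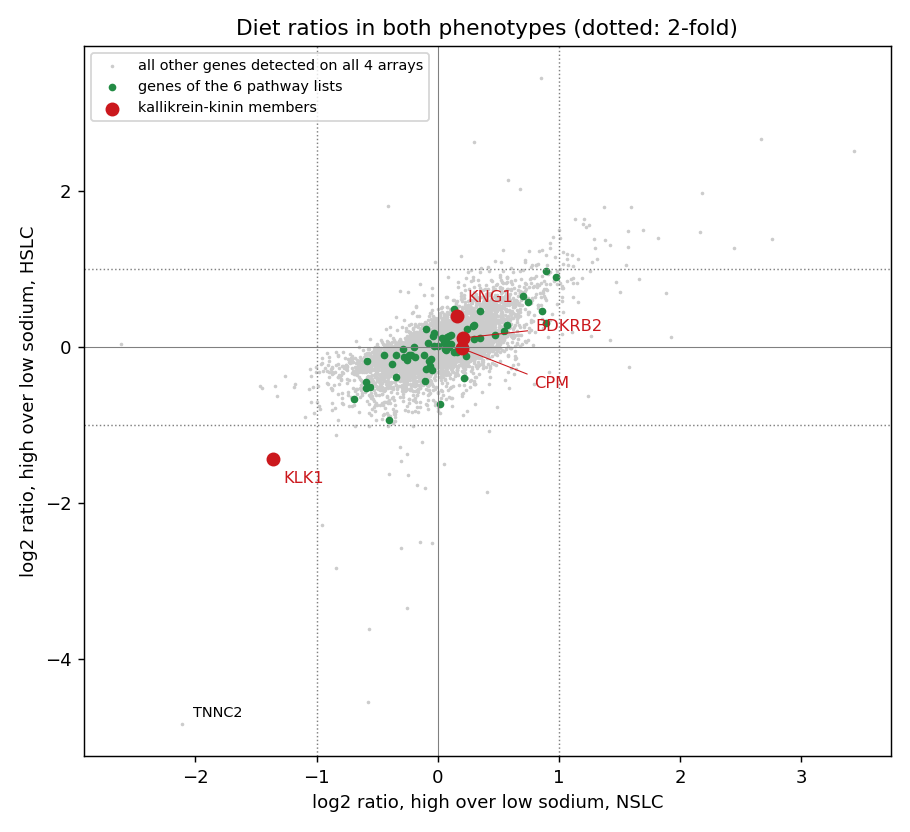
Log2 ratio of high over low sodium in NSLC (x axis) and in HSLC (y axis) for the genes detected on all 4 arrays after quantile normalization; grey points are all genes, green points the genes of the 6 pathway lists and red points the 4 detected members, with dotted lines at 2-fold. KLK1 lies at -1.36 and -1.44, KNG1, BDKRB2 and CPM lie within 0.39 of 0 on both axes, and TNNC2 is the other gene past both lower lines.

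Between the phenotypes no detected member reached 2-fold on either diet. KLK1 was at -0.06 in HSLC relative to NSLC on low sodium, with deposited intensities of 1015 and 1009, and at -0.14 on high sodium, with 414 and 571. Without normalization these ratios were 0.02 and -0.44. The difference of the diet ratios of KLK1, HSLC minus NSLC, was -0.08 after quantile normalization, but -0.46 without normalization and -0.39 with median scaling. It has no test, and how far the diet difference of KLK1 was alike in both phenotypes therefore depends on the scaling. KNG1 was higher in HSLC by 0.13 on low and 0.37 on high sodium after normalization, the latter at -0.03 without it. BDKRB2 stood at 0.03 and -0.06, and CPM at 0.19 and -0.03, but on low sodium the series matrix as deposited put them at -0.34 and -0.07. In that setting all genes had a median of -0.24 on low sodium. Without normalization the median of all genes was -0.14 on high sodium. The 2-fold rule was passed by 0.283% of genes higher and 0.0486% lower on low sodium, by 0.0959% and 0.352% on high sodium, and by 0.0672% and 0.285% for the difference of the diet ratios. In each of these 3 comparisons 0 of 4 detected members passed.

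The wider pathway was described by 6 lists of 94 genes, of which 87 had a probe with a symbol. In the diet comparisons 0 of 63 detected pathway genes reached 2-fold in NSLC and 0 of 64 in HSLC, in either direction. Since so few of all genes were lower by 2-fold, 0.156% and 0.232%, a count of 0 among these is near the background and is no result about the pathway. Without normalization 6 were higher by 2-fold in NSLC and 1 in HSLC, where 1.99% and 0.657% of all genes were higher, and 0 were lower, where 0.0164% and 0.184% of all genes were.

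Other kallikrein-related peptidases, a family of serine proteases encoded beside KLK1, were often at background. Of 12 on the array, 6 were detected on all arrays and 3 on none. Their median ratio was -0.20 in NSLC and -0.10 in HSLC, with 5 of 6 below 0 in each. KLK10, a secreted member, read 196.7 and 183.5 in NSLC on low and high sodium and 185.5 and 161.5 in HSLC. Its log2 ratios were -0.37 and -0.22, the lowest of the family in each phenotype. KLK8 was at -0.34 and -0.10, and KLK14 at -0.28 and -0.13. These 3 kept their sign under each scaling.

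Inhibitors of kallikreins and related proteases had a median of 0.25 in NSLC and 0.03 in HSLC, with 4 of 6 and 4 of 7 detected members above 0. SERPING1, the inhibitor of plasma kallikrein and of complement proteases, read 776.5 and 1882 in NSLC on low and high sodium, and 935.4 and 1574 in HSLC. The diets did not overlap, with the high sodium arrays above as in 31% of genes. The log2 ratios of SERPING1 were 0.70 and 0.65, short of 2-fold, although without normalization the NSLC ratio was 1.28. SERPINA5, a heparin-dependent protease inhibitor that also binds tissue kallikrein, was at 0.35 and 0.46. The broad inhibitor A2M was at 0.57 and 0.29. Kallistatin itself, the product of SERPINA4, was near background, at 71.7 to 86.6 on the 4 arrays. The contact system, which releases kinin in plasma, had few detected members. Plasma kallikrein (KLKB1) was at 0.06 in NSLC and at -0.03 in HSLC, the latter turning to 0.05 in 1 scaling, and PRCP, a carboxypeptidase that activates plasma prekallikrein, at -0.07 and -0.18. The sign of PRCP in NSLC turned to 0.42 without normalization.

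Peptidases that degrade or convert kinins had ratios of either sign. Their median was -0.08 in NSLC and -0.06 in HSLC, with 9 of 15 detected members below 0 in each. XPNPEP2, a membrane aminopeptidase P that inactivates bradykinin, read 2844 and 2467 in NSLC on low and high sodium, and 2563 and 1716 in HSLC. Its log2 ratios were -0.69 and -0.67. MME, the kinin-degrading neprilysin of the brush border, was at -0.56 and -0.51, and aminopeptidase N (ANPEP) at -0.59 and -0.45. In NSLC these 3 ratios shrank to -0.20, -0.01 and -0.07 without normalization, which is below the median of all genes in that setting. CPE, a carboxypeptidase of secretory granules, was at 0.86 and 0.46, and passed 2-fold in NSLC without normalization, at 1.18. ACE, the main kininase of vessels, stood at 79.7 to 108.8 on the arrays and had ratios of -0.10 and -0.28. On high sodium, DPP4 and ENPEP were lower in HSLC than in NSLC, with log2 ratios of -1.24 and -1.37. Both stayed past 2-fold in every scaling, and 0.352% of all genes were lower by 2-fold in that comparison. There MME was at -0.35, XPNPEP2 at -0.14 and ANPEP at 0.13. On low sodium DPP4 and ENPEP stood at -0.92 and -0.61. Both are known from the proximal tubule brush border. On high sodium 20 of 20 detected proximal tubule markers were below 0 in HSLC relative to NSLC, with a median of -0.52. Among them SLC34A1, a phosphate cotransporter, was at -1.10. On low sodium the median of these markers was -0.15, with 7 of 20 above 0. The part of the proximal tubule in the DPP4 and ENPEP ratios was not tested. ENPEP cleaves angiotensins and was entered in the list as a membrane aminopeptidase.

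Genes that carry the receptor signal onward had a median of 0.07 in NSLC and 0.12 in HSLC, with 14 of 20 and 17 of 21 detected members above 0. All genes had a median of 0.04 and 0.01, so the NSLC median of the list was near that of all genes. PTGS1, a cyclooxygenase of prostaglandin synthesis, read 203.8 and 536.6 in NSLC on low and high sodium, and 207.1 and 409.1 in HSLC. Both high sodium arrays were far brighter, and the log2 ratios were 0.97 and 0.89, just under 2-fold. Without normalization the NSLC ratio of PTGS1 was 1.41, and with median scaling its HSLC ratio also reached 2-fold. ITPR3, a calcium release channel, was at 0.90 and 0.31, the former at 1.09 without normalization, and GUCY1A1, a subunit of the nitric oxide receptor guanylate cyclase, at 0.55 and 0.21. The endothelial nitric oxide synthase NOS3 was at 0.08 and 0.12. The inducible cyclooxygenase PTGS2, the phospholipase PLA2G4A and neuronal NOS1 were below the array median on all arrays.

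In mice tissue kallikrein is also known as a protease that acts on the epithelial sodium channel, so the channel subunits and other channel-activating proteases were listed. The gamma subunit SCNN1G read 337.4 and 306.8 in NSLC on low and high sodium and 312.2 and 228.9 in HSLC, with log2 ratios of -0.59 and -0.52. The beta subunit SCNN1B was at -0.58 and -0.17. Without normalization the NSLC ratios shrank to -0.13 for SCNN1G and -0.11 for SCNN1B. The alpha subunit SCNN1A was at 0.22 in NSLC and -0.40 in HSLC, and on high sodium it was lower in HSLC than in NSLC with a log2 ratio of -1.03. Over the scalings that value lay between -1.37 and -0.77, so it did not always reach 2-fold. The protease prostasin (PRSS8) was at 0.07 and -0.04, the latter at 0.08 with median scaling, and FURIN at -0.34 and -0.39. The NSLC value of FURIN turned to 0.21 without normalization, where the median of all genes was 0.28. PLAU, urokinase, stood at 0.89 and 0.97 and SERPINE2, a serpin that inhibits it, at 0.74 and 0.57. Without normalization PLAU was at 1.41 in NSLC and also past 2-fold in HSLC, and SERPINE2 was at 1.26 in NSLC. The list median was 0.08 in NSLC and -0.12 in HSLC.

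**Figure D4:**
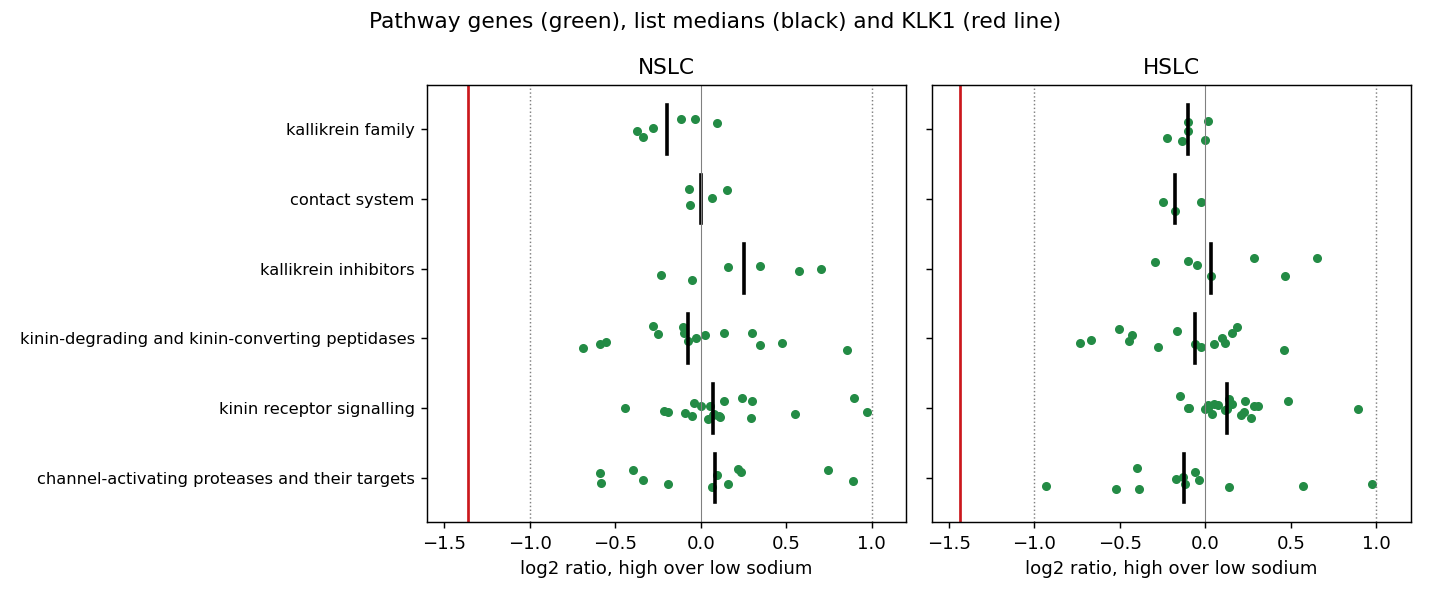
Log2 ratio of high over low sodium (x axis) for the detected genes of 6 pathway lists (rows), with NSLC on the left and HSLC on the right; green points are genes, black bars list medians, the red line is KLK1 and dotted lines mark 2-fold. No green point reaches 2-fold on either side, and list medians lie between -0.20 and 0.25.

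Markers of the nephron segments around the site of kallikrein synthesis were then set beside KLK1. For the distal convoluted and connecting tubule the median ratio was 0.04 in NSLC and -0.06 in HSLC, with 8 of 18 and 11 of 18 detected members below 0. SLC12A3, the thiazide-sensitive cotransporter, read 634.7 and 421.6 in NSLC on low and high sodium and 640.9 and 374.5 in HSLC. Its log2 ratios were -1.10 and -0.89, the former at -0.59 without normalization. PVALB, a calcium-binding protein of the early distal convoluted tubule, was at -0.76 and -0.15, the latter turning to 0.01 with median scaling. KCNJ1, a secretory potassium channel, lay on the other side at 0.53 and 0.41. So did the calcium pump ATP2B4 at 0.27 and 0.28 and the kinase STK39 at 0.16 and 0.52. KCNJ1 is also in the thick ascending limb list. The median of that list was 0.36 in NSLC and 0.24 in HSLC, with 6 of 8 and 5 of 8 detected members above 0. Of other distal markers, the calcium channel TRPV5 was at -0.34 and -0.05 and the sodium-calcium exchanger SLC8A1 at -0.10 and -0.04. CALB1, the calcium-binding protein of these cells, was near background, at 86.8 and 79.5 in NSLC and 72.2 and 63.8 in HSLC. Principal cell markers had a median of 0.13 and -0.03, and intercalated cell markers -0.40 and -0.29. Without normalization the NSLC medians were 0.54 for principal and 0.03 for intercalated cells, and 0.26 for the distal list, beside 0.28 for all genes. With median scaling the intercalated median in NSLC was -0.02, beside 0.23 for all genes. The intercalated sign in NSLC thus turned without normalization, while the list stayed below the median of all genes in both settings. In biopsy RNA, fewer cells of a type and less RNA per cell cannot be told apart.

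Markers of other cells differed along the same diet contrast as KLK1. The tubular injury list was above 0 in 11 of 11 detected members in NSLC and 11 of 13 in HSLC, and its 15 probes summed to 5480 and 5969 on low sodium and to 15060 and 13668 on high sodium. Smooth muscle and fibroblast markers, 12 probes, summed to 9382 and 10395 on low sodium and to 28581 and 20720 on high sodium, in the order NSLC and HSLC. Their detected members were above 0 in 10 of 10 and 9 of 10. Macrophage markers summed to 3299 and 3541 on low sodium and to 6922 and 6802 on high sodium, with 11 of 11 and 10 of 10 above 0. Proximal tubule markers, 22 probes, summed to 53530 and 50911 on low sodium and to 61134 and 37963 on high sodium, in the same order. Their median ratio was -0.57 in HSLC, with 20 of 20 detected members below 0. In NSLC it was -0.26 after quantile normalization, with 15 of 20 below 0, but 0.20 without normalization, with 17 of 20 above 0. That 0.20 was still below the median of all genes without normalization, 0.28. No probe of these lists had an intensity of 0, which does not show that its transcript was present. The part of these cells in the KLK1 result was not tested. For KNG1, which the liver also makes, hepatocyte markers had a median of -0.14 and -0.12, and their 16 probes summed to 2196 to 2681 on the 4 arrays. Of these 16, 9 were detected on all arrays, ALB among them at 494 to 705, and 5 on none, APOA2, FGB, AHSG, TF and CYP3A4.

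The genes whose pattern over the 4 arrays was most like that of KLK1 were found by the distance between log2 values centred on each gene's mean, among 11909 detected genes. The nearest was SLC12A3, at a distance of 0.44. RBP4, the retinol carrier of plasma, followed at 0.48, the carboxylesterase CES2 at 0.48 and the hydroxyproline-degrading PRODH2 at 0.52. CSAD, an enzyme of taurine synthesis, lay at 0.53, the inositol oxygenase MIOX at 0.57, the arachidonate epoxygenase CYP2C8 at 0.58 and VTCN1, an inhibitory ligand of T cells, at 0.58. RBP4 read 730.8 and 598.7 in NSLC on low and high sodium and 911 and 464.9 in HSLC. In all 8 both high sodium arrays lay below both low sodium arrays, which follows from choosing them for likeness to KLK1. In each the diet ratio was smaller than that of KLK1 in both phenotypes, and KLK1 was itself chosen for its low ratios. Neither trait is therefore a result about these genes. SLC12A3 was among the nearest 8 in each setting where this search was repeated, and between 5 and 8 of the 8 were shared. It was not always the nearest. CRYGD came first without normalization, with median scaling, on the deposited intensity and in the series matrix as deposited, and CES2 with cyclic loess. All 8 were shared where only the detection limit changed or probes were averaged, settings that keep the normalized values of KLK1.

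**Figure D5:**
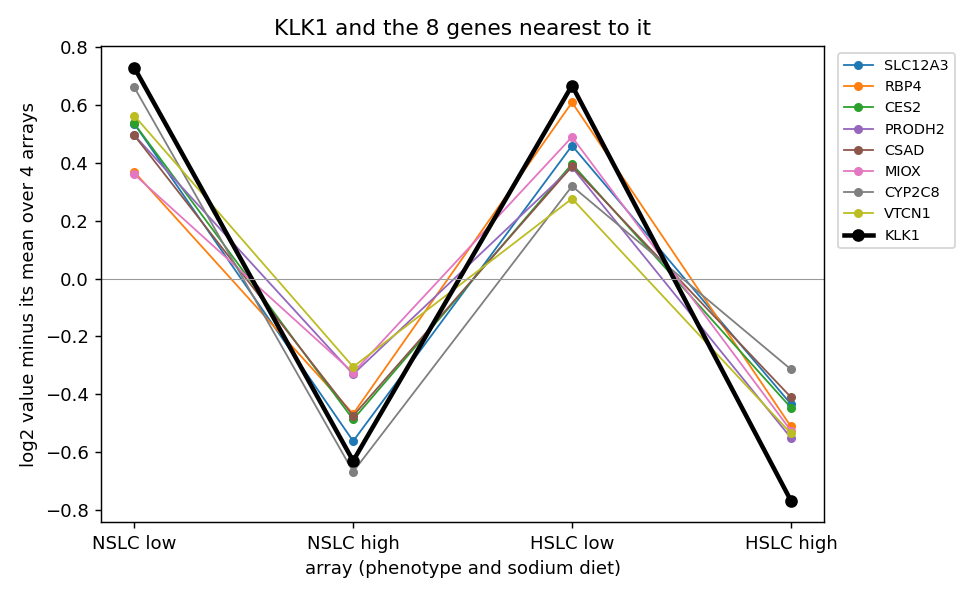
Log2 value minus the gene's mean over the 4 arrays (y axis) on each array (x axis) for KLK1 (black) and the 8 genes nearest to it (colours); points are single arrays after quantile normalization. All 9 lines are high on both low sodium arrays and low on both high sodium arrays, and KLK1 has the widest swing, spanning 1.50. The 8 were chosen for likeness to KLK1 and KLK1 for its low diet ratios, so both traits are carried by the choice.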

How the data were processed

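The authors' deposited sample files hold linear intensity for 48702 probes on each of 4 arrays, made with BeadStudio per the submitters' processing notes, and the deposited series matrix holds a second set of intensities. RNA was extracted with Trizol, cleaned with RNeasy and labelled with Illumina TotalPrep, per the labels. The sources used here do not give the authors' background correction or normalization. After 1 probe at 0 was left out, normexp correction (offset 50), quantile normalization and log2 were applied (limma 3.58.1, R 4.3.3). Of the probes, 23688 carried 1 symbol in the annotation given. Of several probes for a gene the one with the greatest average signal was used, and detection meant an intensity above the array median. With 1 array a group, no test or error can be had, and the number of arrays limits the precision. Ratios were described by a 2-fold rule. The steps were tested on simulated arrays, all drawn from the NSLC low sodium array with small noise and as many planted changes up as down. Their distributions were alike, so this could not test the choice of scaling.

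The members, gene lists and rules were chosen with earlier results of these data known. The naming rule takes the members, up to 4 genes of each pathway list and 3 of each cell type list with the largest ratios, list genes past 2-fold and the 8 genes nearest to KLK1, and the text gives a part of these. ACE, SERPINA4, KLKB1, NOS3, PTGS2, PLA2G4A, NOS1, PRSS8, FURIN, PRCP and some connecting tubule and liver markers were named for their roles after their values were seen. Alternatives were other scalings, a lower offset, the series matrix, other detection limits and the mean over probes.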

Additional observations from a re-analysis of the deposited data

Results flagged for a closer look

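The diet ratios of some genes had opposite signs in the phenotypes, each measured on 1 array a group, and the difference was not tested. The brighter CPM probe was at 0.20 in NSLC and -0.0188 in HSLC. The HSLC value turned to 0.01 with median scaling and 0.03 with the normalized series matrix, so its opposite sign depended on the scaling. ENPEP, a membrane aminopeptidase, was at 0.0227 in NSLC and -0.74 in HSLC. SCNN1A, the alpha subunit of the epithelial sodium channel, was at 0.22 in NSLC and -0.40 in HSLC. For the pathway genes a difference of at least 0.5 was required. No such size was required of a member, and the difference for CPM was -0.22.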

How the results depend on the processing

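No paired analysis was possible because each group has 1 array. KLK1 kept its sign in both diet comparisons in every setting. Its NSLC ratio of -1.36 fell short of 2-fold without normalization (-0.82), with median scaling (-0.88), on the deposited intensity (-0.82) and in the series matrix as deposited (-0.98), the last 2 added after seeing the data. On high sodium its ratio of HSLC over NSLC, -0.14, was -0.44 without normalization, -0.46 on the deposited intensity and -0.45 in the series matrix as deposited. Its difference of diet ratios, -0.08, was -0.46 without normalization, -0.39 with median scaling and -0.47 on the deposited intensity. Of 160 other values for KNG1, BDKRB2 and CPM, 16 moved by more than the standard deviation of all ratios and 0 crossed 2-fold. The 160 include settings that change only the detection limit or average the detected probes. Those leave the ratios of these genes as they were, so they could not move. Of 270 pathway list medians, 13 moved and 0 crossed 2-fold. With the NSLC low sodium array as base for HSLC, 2 peptidases were lower and 1 channel-list gene higher by 2-fold, against 0 and 0. Genes at 2-fold numbered 81 in the NSLC diet comparison, but 245 without normalization, 202 with median scaling and 164 with offset 16. They numbered 95 in HSLC (157 with offset 16). Between phenotypes on high sodium they numbered 56, but 167, 128 and 97 in those 3 settings, and for the difference of diet ratios 42, but 110, 82 and 65. The causes were not tested. BDKRB1, BDKRB2 and the dimmer CPM probe lay too near background for a small difference to be seen.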
